A study of Saccharomyces cerevisiae with 24 samples.

Results

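Binding of the transcription factor Yrr1 was compared between its YJM789 allele and its S96 allele in budding yeast grown in rich medium. Of the 24 libraries of the study, 6 belong to this comparison: 3 chromatin immunoprecipitation (ChIP) libraries of YJM789 in YPD and 3 of S96 in YPD. They were chosen by their labels, and each set was scored against the 1 input library of its own group. The 3 libraries of a group share that input, so p-values and the order of libraries leave out its variation. All cells of this comparison were strain S96 with its own YRR1 gene deleted (yrr1Δ) and carried a Myc-tagged YRR1 allele by transformation, either YRR1_YJM789 or YRR1_S96. Cultures in YPD (rich medium with glucose) were diluted and kept without drug for 2.5 h, and the protein was precipitated with an anti-Myc antibody. A further 3 libraries for each allele came from cultures given 0.25 µg/ml of 4NQO (4-nitroquinoline-N-oxide), which damages DNA, and are used where the allele difference is set against that under the drug. Cultures are called triplicate in the design text but duplicate in the growth protocol; p-values therefore reflect library-to-library spread, some of which may be technical. An untagged strain was not analysed here, and the sources used here do not give the copy number or promoter of the introduced allele.

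Yrr1 belongs to the zinc cluster family of fungal transcription factors, which bind short CCG-containing sequences. It is an activator of the pleiotropic drug resistance network, in which related factors switch on membrane transporters that pump out foreign compounds. Its known targets include SNQ2, which encodes the transporter that exports 4NQO, SNG1, a resistance gene for nitrosoguanidine, and YRR1 itself. YJM789 derives from a clinical isolate and S96 is a laboratory strain.

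The region table gives 1711 regions, of which 1692 are nuclear, 18 mitochondrial and 1 the 2-micron plasmid. For each library it holds a score at the strongest point of the region, the climax, and a mean score over its surroundings, the background. Both are ChIP minus input coverage scores and can lie below 0. The rise is the climax score less the background, in the same score units, and is empty where no climax is listed. In a typical region the rise was well above 0 whatever the allele: the library medians were 25.5, 26.9 and 26.8 in YJM789 against 28.5, 30.6 and 31.2 in S96. Rises in this range are therefore common over the table. The MACS2 lists give, per library, the peaks in which ChIP exceeded input, each with a pileup and a fold enrichment over local background, and the reverse peaks, where the input was the higher. Sequencing depth is unknown for these tables, so no counting error could be given.

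Across the table, 4 regions carried a MACS2 ChIP peak in at least 2 of the 3 YJM789 libraries: the noncoding RNA gene IRT1 and the promoters of SNQ2, SNG1 and APD1. The same 4 had a peak in all 3 S96 libraries. The sequences around their climaxes are shown together with those of the YRR1 and CHD1 promoters, where the allele difference was large. Each is 150 bases around the median climax (for CHD1, that of the S96 libraries), read from the RefSeq copy of the R64 (sacCer3) genome. Capitals mark matches to the Yrr1 recognition sequence, searched on both strands as CCG preceded by A or T and followed by C or T, then G or T, G or T, A or T, and A or T.
IRT1, chrX:607284-607433, plus strand: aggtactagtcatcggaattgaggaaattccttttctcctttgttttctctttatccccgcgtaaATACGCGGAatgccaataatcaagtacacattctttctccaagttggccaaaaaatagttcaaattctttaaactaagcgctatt
SNQ2 promoter, chrIV:465332-465481, plus strand: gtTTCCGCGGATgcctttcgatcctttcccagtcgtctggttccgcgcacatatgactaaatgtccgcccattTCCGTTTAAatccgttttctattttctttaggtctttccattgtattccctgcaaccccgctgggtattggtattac
SNG1 promoter, chrVII:894384-894533, plus strand: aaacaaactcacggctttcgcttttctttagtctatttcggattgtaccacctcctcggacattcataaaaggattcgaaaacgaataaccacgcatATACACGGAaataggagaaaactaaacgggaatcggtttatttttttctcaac
APD1 promoter, chrII:544682-544831, plus strand: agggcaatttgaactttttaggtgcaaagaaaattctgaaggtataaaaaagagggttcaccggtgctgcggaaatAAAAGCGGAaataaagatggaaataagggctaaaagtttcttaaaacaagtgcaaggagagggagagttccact
YRR1 promoter, chrXV:642183-642332, plus strand: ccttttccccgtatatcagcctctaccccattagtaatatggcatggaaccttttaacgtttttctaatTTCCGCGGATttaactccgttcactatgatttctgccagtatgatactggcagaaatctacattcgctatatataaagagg
CHD1 promoter, chrV:505060-505209, plus strand: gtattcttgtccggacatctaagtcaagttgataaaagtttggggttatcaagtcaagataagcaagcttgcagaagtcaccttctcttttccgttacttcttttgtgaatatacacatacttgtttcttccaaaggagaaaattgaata

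The IRT1, SNG1 and APD1 windows held 1 match each. The YRR1 window held 2 that overlap on opposite strands, and the SNQ2 window 3, of which 2 overlap. The CHD1 window held 0, which says only that these letters are not in it. A match was present in 81 of 1673 nuclear windows of the same length at the median climax (4.84%), and in 974 of 6002 promoters of 500 bp (16.2%). Distances were taken from the centre of the match nearest to the median climax of a region. The IRT1 climaxes lay at most 22 bp from it in all 6 libraries, those of APD1 at most 9 bp and those of SNQ2 at most 40 bp. At SNG1 the YJM789 climaxes lay 12, 147 and 83 bp from it, and those of S96 13, 17 and 34 bp. At the YRR1 promoter the distances were 121, 16 and 21 bp in YJM789 and 14, 48 and 45 bp in S96. Over the 1070 tested regions with a climax in all 6 libraries the climaxes spanned a median of 422.5 bp, and in 53 of them (4.95%) they fell within 100 bp of each other. IRT1, SNQ2 and APD1, with spans of 26, 55 and 11 bp, are among these 53.

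**Figure D1:**
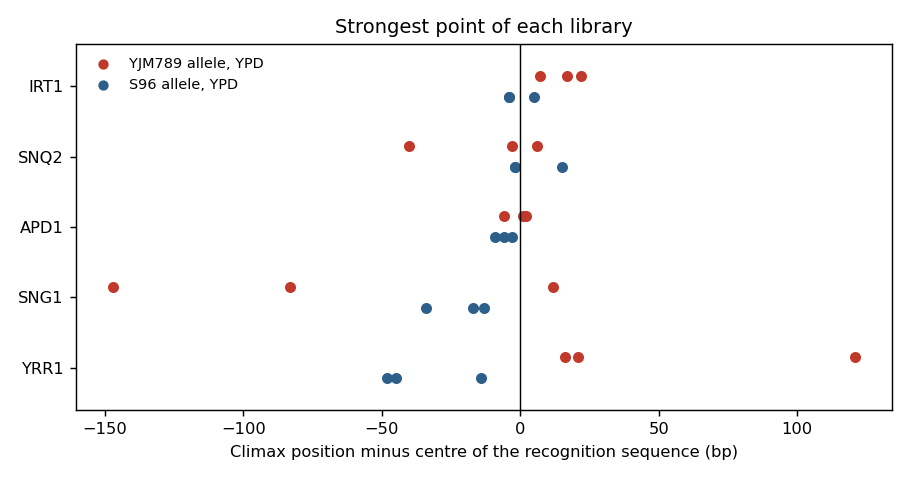
Distance in bp (horizontal axis) between the climax of each YPD library and the centre of 1 Yrr1 recognition sequence per region, the one nearest to the median climax, at 5 regions (vertical axis), with YJM789 points above S96 points; negative values lie at lower coordinates. Points at IRT1, SNQ2 and APD1 sit within 40 bp of the match, whereas at SNG1 and YRR1 single YJM789 libraries lie 147 and 121 bp away.

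The strongest signal of either allele was inside IRT1 (chromosome X, 606408 to 607949), and it was lower with the YJM789 allele. IRT1 is a noncoding RNA transcribed toward IME1, the master activator of meiosis, whose transcription through the IME1 promoter is known to hold IME1 down. The climax lay within the annotated IRT1 gene (605936 to 607424, minus strand) and 1708 bp from the IME1 gene. The rise was 215, 228 and 252 in the YJM789 libraries, against 327, 335 and 365 in the S96 libraries. Every YJM789 value was below every S96 value. The means were 231.8 ± 19.0 in YJM789 and 342.4 ± 19.8 in S96 (SD, n = 3 each), a log2 difference of -0.56 ± 0.11 (SE; limma on log2(rise + 1), Benjamini-Hochberg adjusted p = 0.00872 over 1350 regions). The climax score carried the difference, with 217, 226 and 253 in YJM789 and 316, 334 and 353 in S96. The background there was within 12 units of 0 in all 6 libraries. The deposited MACS2 lists gave the same order, with fold enrichments of 3.91, 3.93 and 4.41 in YJM789 and 5.35, 5.65 and 5.90 in S96. Pileups were 198, 189 and 216 in YJM789 and 243, 257 and 268 in S96. The call was lost with library medians set equal (log2 difference -0.39, adjusted p = 0.127), with no variance trend (adjusted p = 0.26), and without YJM789 ChIP 1 (log2 difference -0.51, adjusted p = 0.065).

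The SNQ2 promoter (IV, 464940 to 465905, 497 bp from the SNQ2 start codon) held the next strongest signal, and there the YJM789 libraries were not below those of S96. SNQ2 is an ABC transporter gene of the network, and the climax also lies 24 bp from the open reading frame YDR010C. The rise was 197, 201 and 191 in YJM789, against 184, 166 and 182 in S96, so the groups did not overlap and YJM789 was the higher by a small margin. The log2 difference was 0.15 ± 0.09 and did not pass the test (adjusted p = 0.394, limma). MACS2 fold enrichments were 3.68, 3.75 and 3.75 in YJM789 and 2.86, 2.47 and 2.86 in S96. Those values do not overlap either, and their means were 3.73 ± 0.04 in YJM789 and 2.73 ± 0.22 in S96. An exact two-sided permutation test of the fold gave p = 0.1, the smallest that 3 against 3 libraries allow.

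**Figure D2:**
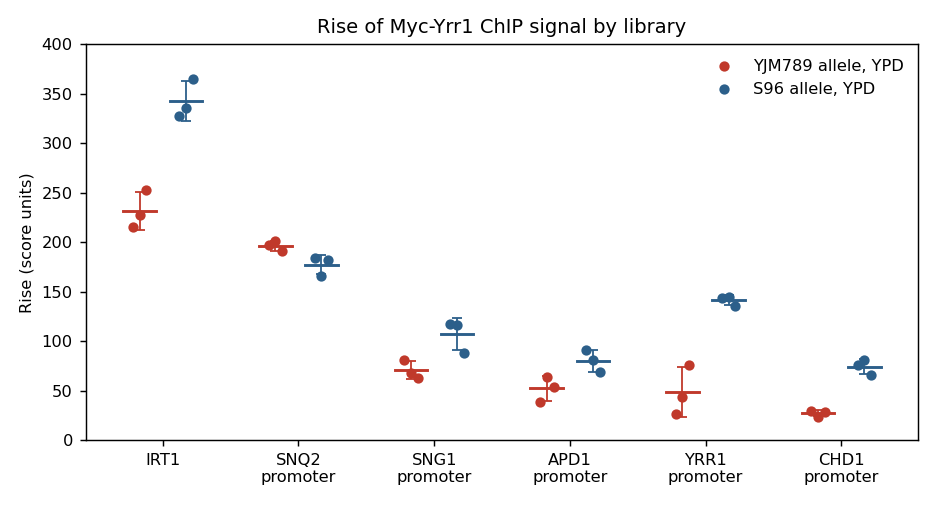
Rise in score units (vertical axis) at IRT1 and 5 promoters, 1 point per library, YJM789 left of S96; bars are group means and whiskers SDs of 3 libraries. The S96 libraries lie above those of YJM789 at IRT1 (327 to 365 against 215 to 252), YRR1 and CHD1, and just below them at SNQ2.

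IRT1 was set against SNQ2 within each library, which cancels any factor common to a whole library. The ratio of their rises was 1.09, 1.14 and 1.32 in YJM789 and 1.78, 2.02 and 2.001 in S96. The ratio of their MACS2 fold enrichments was 1.06, 1.05 and 1.18 in YJM789 and 1.87, 2.29 and 2.07 in S96. IRT1 was thus the higher in each library of both alleles, and by less in every YJM789 library than in every S96 library. By rise and by fold, every YJM789 value was below every S96 value at IRT1 and above it at SNQ2. The order of both ratios therefore follows from those values and is no separate test of the allele difference. Each ratio gave p = 0.1 in an exact two-sided permutation test, the smallest possible, or 0.11 after Benjamini-Hochberg adjustment over 11 such tests of ratios and folds.

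SNG1 (promoter region VII, 893849 to 894948, 258 bp from its start codon and also upstream of YPP1, a gene of endocytosis) had a peak in all 6 libraries. Its rise was 81.0, 68.5 and 63.3 in YJM789, against 117, 117 and 88.5 in S96. The groups did not overlap, but the log2 difference of -0.59 ± 0.21 did not pass the test (adjusted p = 0.148, limma). The MACS2 fold did not share that order, with 2.13, 1.81 and 1.96 in YJM789 and 2.098, 1.95 and 1.79 in S96 (exact permutation p = 0.7). In units of the SNQ2 fold of the same library, SNG1 stood at 0.58, 0.48 and 0.52 in YJM789 and 0.73, 0.79 and 0.63 in S96. The SNG1 folds themselves overlapped, so the order of this ratio comes from the higher SNQ2 folds in YJM789.

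The APD1 promoter (II, 544421 to 545157, between the divergent genes APD1 and TBS1) was the other region with peaks for both alleles. It is described because it met the peak criterion in both groups, and was singled out after its values were seen. APD1 encodes a protein needed for normal cortical actin patches, and TBS1 a putative zinc cluster protein. Its rise was 39.2, 64.3 and 53.8 in YJM789, against 90.7, 80.9 and 68.9 in S96, with no overlap. The log2 difference was -0.62 ± 0.33 (adjusted p = 0.34, limma), which is not past the threshold. MACS2 fold enrichments were 1.93 and 2.08 in the YJM789 libraries 2 and 3, with no peak listed in the first, and 2.22, 2.05 and 1.89 in S96. No reverse peak lay there in any of the 6 libraries.

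The YRR1 promoter (XV, 642006 to 642721, 371 bp from the YRR1 start codon) showed a larger allele difference than IRT1 on the log2 scale, though not in score units, and more spread among the YJM789 libraries. The rise was 26.6, 43.4 and 76.4 in YJM789, against 143, 145 and 136 in S96. The YJM789 values thus varied widely, the first being close to its library's median, and all lay below S96. The log2 difference was -1.64 ± 0.35 (adjusted p = 0.0113, limma). The climax score was 64.5, 71.7 and 75.2 in YJM789 and 124, 109 and 127 in S96, where the spread within each group was smaller. The background was 37.9, 28.3 and -1.2 in YJM789 and -19.7, -36.1 and -9.0 in S96, so background and climax both moved the rise the same way. Relative to SNQ2 in the same library, the climax score was 0.31, 0.35 and 0.35 in YJM789 and 0.68, 0.71 and 0.68 in S96. The SNQ2 climax scores were 207.8, 207.5 and 212.5 in YJM789 and 181.5, 153.3 and 185.3 in S96. The order of this ratio therefore follows from its parts and is no separate test. A MACS2 peak was listed in 1 of 3 YJM789 libraries (fold 1.46) and in all 3 S96 libraries (1.67, 1.57 and 1.42). Its pileup was 122 in that YJM789 library and 199, 181 and 189 in S96. The YJM789 fold thus lay within the S96 range while its pileup lay below it, so the local background used by MACS2 was lower there too. The part of this in the difference of the rise was not tested. YRR1 is an introduced copy in these cells, so whether signal came from its own locus or from the construct cannot be told apart. The call was lost in the m2 set, the alternative parameter set of the deposited table (adjusted p = 0.131), without YJM789 ChIP 1 (log2 difference -1.28, adjusted p = 0.102) and without S96 ChIP 2 (adjusted p = 0.064).

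The Yrr1 target list has 13 genes, and 4 of them had a region in the table, which gave 5 tested regions. The other 9 (AZR1, CIS1, FLR1, SGE1, YLL056C, YLR046C, YMR102C, YOR1 and YPL088W) had none. Besides SNQ2, SNG1 and the YRR1 promoter, the list holds a region in the YRR1 gene body and one in YLR179C. The YRR1 body (XV, 639688 to 640205) had rises of 19.9, 17.7 and 24.8 in YJM789 and of 40.0 and 48.6 in S96, whose library 2 had none, a log2 difference of -1.06 ± 0.38 (adjusted p = 0.153). YLR179C, a gene of unknown function, had 24.3, 20.6 and 14.2 in YJM789 and 27.5, 42.8 and 31.2 in S96 (log2 difference -0.76, adjusted p = 0.324). In all, 0 of these 5 regions were higher, 1 was lower, and 4 did not pass the test, with a median log2 difference of -0.76 against -0.19 over all tested regions. Of all tested regions 0.519% were higher and 1.56% lower. The other drug resistance genes, with 6 tested regions that include PDR5 and a region at SLA1 and PDR3, had 0 called in either direction and a median of -0.14.

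Over the whole table, 1350 regions had at least 2 values in every group and were tested, and 361 were not. With the YJM789 allele 7 regions were higher (0.519%) and 21 were lower (1.56%) than with the S96 allele at an adjusted p below 0.05 (limma). At an unadjusted p below 0.05 the counts were 36 higher and 191 lower. The centre of the distribution lay below 0: 893 of the 1350 log2 differences were negative (66.1%), with a median of -0.19. Setting the library medians equal removed that shift and gave 9 higher and 7 lower. Among the 1070 tested regions with all 6 values, the libraries did not overlap with YJM789 higher in 60 (5.61%) and with YJM789 lower in 218 (20.4%). Relative to the median region, IRT1 stood at -0.38, the YRR1 promoter at -1.45, and SNQ2 at 0.33.

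**Figure D3:**
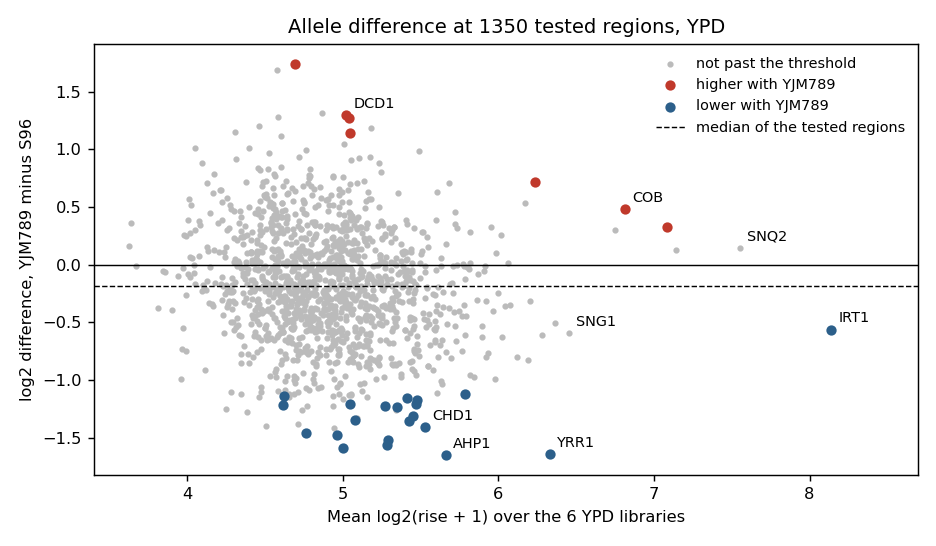
Log2 difference of the rise, YJM789 minus S96 (vertical axis), against the mean log2(rise + 1) over the 6 YPD libraries (horizontal axis) for 1350 tested regions; red points passed the test as higher, blue as lower, and the dashed line is the median of -0.19. IRT1 and SNQ2 lie at the far right, and most called regions lie among the weak ones.

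The call counts rested on single libraries. Of the 28 called regions, 4 of 26 that could be tested stayed past the threshold without YJM789 ChIP 1, 20 of 28 without ChIP 2 and 7 of 26 without ChIP 3. Without S96 ChIP 1, 2 and 3, 21, 6 and 14 of the 28 stayed. Among the lower calls, IRT1 and the YRR1 promoter held in 17 of the 20 alternatives that could be run for them, RIM8 and YNCL0039W in 17 of 19, CHD1 in 16 of 19 and AHP1 in 16 of 20. Among the higher calls, COB and the region near YNCK0019W held in 15 of 18.

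The CHD1 promoter (V, 504844 to 505619, 161 bp from the start codon) was the called promoter with the largest difference of the climax score in score units. CHD1 encodes a chromatin remodeller that spaces nucleosomes over genes. The rise was 29.3, 23.95 and 29.0 in YJM789, close to the library medians, against 76.3, 80.7 and 66.5 in S96. The log2 difference was -1.41 ± 0.31 (adjusted p = 0.0132, limma). The climax score was 18.6, 13.0 and 17.4 in YJM789 and 72.4, 75.2 and 67.5 in S96. All 3 YJM789 climaxes lay at the edge of the region inside CHD1, while those of S96 fell within 88 bp of each other, 257 bp from the gene. No MACS2 peak was listed in any of the 6 libraries, and the call was lost without YJM789 ChIP 1 (adjusted p = 0.065), without YJM789 ChIP 3 (0.0506) and without S96 ChIP 2 (0.0669).

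Of the 21 lower regions, 13 lay over gene bodies. Such regions were common throughout, since 788 of the 1350 tested regions lay over a gene body without a tRNA gene. The region of AHP1 and CCW12 (XII, 368864 to 370329), a peroxiredoxin gene and a cell wall mannoprotein gene, had the largest fall. Its rise was 21.5, 32.7 and 29.9 in YJM789, against 39.9, 131 and 133 in S96. The S96 libraries disagreed, since library 1 was near the YJM789 values and the other two were far above them. The log2 difference was -1.65 ± 0.34 (adjusted p = 0.00872, limma), and it was not past the threshold without S96 ChIP 2 or 3 (adjusted p = 0.0669 and 0.0767), without YJM789 ChIP 1 (0.065), or in a fit of only the 2 groups (0.0501). UTH1, a cell wall protein gene, had 21.3, 31.9 and 25.4 in YJM789 and 69.9, 68.6 and 64.6 in S96 (log2 difference -1.35, adjusted p = 0.0137). Of the cell wall list, 29 regions were tested, of which 2 were lower (AHP1/CCW12 and UTH1) and 0 higher, where 1.56% of all tested regions were lower and 0.519% higher, and the median was -0.19, as over all regions. The third member by p, CRH1, a cell wall transglycosylase gene, missed the threshold (log2 difference -1.33, adjusted p = 0.0669).

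Among cytosolic ribosomal protein genes, 3 of 117 tested regions were lower and 0 higher, a count near the 1.56% lower and 0.519% higher over all tested regions. Their median was -0.34, against -0.19 for all regions. The 3 were RPS4B, RPL4A and RPP0. RPS4B had rises of 21.4, 28.1 and 27.6 in YJM789, against 43.0, 66.4 and 81.1 in S96 (log2 difference -1.23, adjusted p = 0.0215). RPL4A had 19.2, 31.7 and 23.5 in YJM789 and 45.6, 61.6 and 69.2 in S96 (log2 difference -1.22, adjusted p = 0.0395). RPP0, the stalk protein gene, had 34.2, 28.7 and 24.2 in YJM789 and 56.9, 65.6 and 76.7 in S96 (log2 difference -1.17, adjusted p = 0.0395). At each of the 3 the groups did not overlap, and the YJM789 values lay around the library median. The groups were likewise apart at all 21 lower calls. They were apart with YJM789 lower at 218 of the 1070 tested regions with a value in every library (20.4%). The lack of overlap is therefore not particular to ribosomal protein genes. Translation factor genes had 1 of 24 regions lower and 0 higher, with a median of -0.32. That region was TEF2, which encodes elongation factor 1A, at 25.6, 51.3 and 36.9 in YJM789 and 58.4, 107 and 83.2 in S96 (log2 difference -1.12, adjusted p = 0.0395). TEF1, the other copy of that gene, and SSB1, a ribosome-associated chaperone gene, stood at -0.95 and -0.85 and did not pass (adjusted p = 0.112 and 0.126). TEF1 and TEF2 have near-identical coding sequences, and the sources used here do not say how reads shared between such copies were placed.

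Glycolysis and fermentation genes had a lower median than these lists, at -0.60 over 22 tested regions, of which 20 were below 0. By limma 0 of the 22 passed in either direction. The smallest p-values were at TPI1 (triose phosphate isomerase), with a log2 difference of -1.03 (adjusted p = 0.0686), ADH1 (alcohol dehydrogenase), at -0.80 (0.102), and TDH2 (glyceraldehyde phosphate dehydrogenase), at -0.86 (0.127). Nuclear respiration genes had 10 tested regions, 0 called and a median of -0.17, with the smallest p at HAP2 (log2 difference -0.70, adjusted p = 0.35). The general and oxidative stress list had 9 tested regions, of which AHP1 was lower and 0 were higher. The trehalose synthase gene TPS1 (-0.79, adjusted p = 0.142) and a region over SOD2 and YHR007C-A (1.01, adjusted p = 0.179) did not pass. The DNA damage list had 8 tested regions with 1 higher, DCD1, and 0 lower. Of all tested regions 0.519% were higher and 1.56% lower. RNR1, a ribonucleotide reductase gene, and YJL027C, upstream of the reductase gene RNR2, gave log2 differences of 0.72 (adjusted p = 0.355) and 0.58 (0.484), which did not pass.

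At tRNA genes, 208 regions were tested, of which 2 were higher and 4 lower, a count near the 0.519% and 1.56% over all tested regions, and the median was -0.25. The strongest of the lower calls lay at YNCL0039W, a serine tRNA gene, with rises of 29.3, 21.5 and 16.2 in YJM789 against 88.4, 45.9 and 70.4 in S96 (log2 difference -1.56, adjusted p = 0.00872). The other 3 were at a leucine tRNA gene upstream of MET17, at an arginine tRNA gene beside GCN4, the activator of amino acid synthesis genes, and at an aspartate tRNA gene upstream of EST3. MET17 stood at -1.35 (adjusted p = 0.0375), GCN4 at -1.31 (0.0395) and EST3 at -1.46 (0.0454; the YJM789 library 2 had no value). The remaining lower regions were at RIM8 (-1.52, adjusted p = 0.00872), a gene of pH signalling, SRO9 (-1.58, 0.0215), an RNA-binding protein gene, TAE1 (-1.47, 0.0395), a ribosomal protein methyltransferase gene, YGR079W (-1.20, 0.0395), SPO14 (-1.21, 0.044), a phospholipase D gene, YPL062W (-1.21, 0.044), FSH1 (-1.14, 0.044), a serine hydrolase gene, and the 2-micron plasmid (-1.16, 0.00872). At each of these 21 regions every YJM789 value was below every S96 value, which was so for 20.4% of all regions with 6 values.

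The 7 higher regions differed from the lower ones in where the change lay. In 3 of them the signal was mitochondrial: COB (apocytochrome b), COX1 and COX2 (cytochrome oxidase subunits). COB had rises of 135, 126 and 135 in YJM789, against 100.1, 93.2 and 89.4 in S96 (log2 difference 0.48, adjusted p = 0.00396). Its climax scores were -6.8, -6.6 and -6.8 in YJM789 and 1.2, 4.1 and 19.4 in S96, so ChIP did not exceed input at the strongest point in YJM789. The background was -142, -133 and -142 in YJM789 and -98.9, -89.1 and -70.03 in S96, and reverse peaks lay there in all 6 libraries. COX1 (log2 difference 0.72, adjusted p = 0.0113) and COX2 (0.33, 0.0395) also had reverse peaks in all 6 libraries. Reverse peaks lay at lower regions too, in at least 1 S96 library at 8 of 21, and at YPL062W in all 3 S96 libraries. Over all 1350 tested regions, S96 libraries 1, 2 and 3 had reverse peaks at 223, 292 and 268. A ChIP peak in any of the 6 libraries was listed at 5 of the 21 lower regions, and at 218 of the 1350 tested regions. It was listed at 2 of the 7 higher regions, in S96 libraries only. All 8 tested mitochondrial regions had a difference above 0, with 3 higher, 0 lower and a median of 0.31. Of all tested regions 0.519% were higher and 1.56% lower.

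The other 4 higher regions were nuclear. They lay at DCD1, a deaminase gene of nucleotide metabolism with the proline tRNA gene SUF8 beside it, near YNCK0019W, upstream of YNL146C-A, and upstream of the transposon gene YGR109W-A at a cysteine tRNA gene. DCD1 had rises of 46.1, 61.5 and 43.9 in YJM789, against 13.0, 20.03 and 29.1 in S96 (log2 difference 1.30, adjusted p = 0.0215). Its climax scores overlapped, at 36.7, 46.3 and 37.1 in YJM789 and 41.9, 43.9 and 51.1 in S96, while the background was -9.4, -15.2 and -6.8 in YJM789 and 28.9, 23.9 and 21.96 in S96. The only ChIP peak listed at DCD1 was in S96 ChIP 3 (MACS2 fold 1.67), against the direction of the call. The log2 differences of the others were 1.27 near YNCK0019W (adjusted p = 0.00872), 1.74 at YNL146C-A (0.0249; the YJM789 library 2 had no value) and 1.14 at YGR109W-A (0.0421). At 0 of the 7 higher regions was every YJM789 climax score above every S96 one, and at all 7 every YJM789 background was below every S96 one. The libraries of a group share an input, so this order does not cover variation of the input.

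The climax score and the background thus divided the calls. The calls rest on the climax score less the background, so the direction of these parts follows in part from the calls. Among the 1070 tested regions with 6 values, the climax scores did not overlap with YJM789 lower in 203 (19.0%) and with YJM789 higher in 214. The backgrounds did not overlap with YJM789 lower in 184 (17.2%) and with YJM789 higher in 350 (32.7%). Of the 21 lower regions, the climax score alone separated the groups in 14, it was lower on average with YJM789 in 20, and its part of the difference exceeded that of the background in 15. The background was higher in every YJM789 library than in every S96 library at 14 of the 21. Over all tested regions the mean climax score differed by a median of 0.55 units and the background by 6.06 units, YJM789 minus S96. The climaxes of the 3 YJM789 libraries fell within 200 bp of each other at 7 of the 21 lower regions, and those of S96 at 18. Over the 1070 regions with 6 values these shares were 51.5% for YJM789 and 54.5% for S96. At the 7 higher regions the YJM789 climaxes fell within 200 bp in 7 and the S96 climaxes in 3. At COX1 and near YNCK0019W all 3 YJM789 climaxes lay within 10 bp of the region's edge, at COB 2 and at DCD1 0. Among the lower regions, 2 S96 climaxes each lay at such an edge at UTH1 and RPS4B. Closeness at an edge does not show a shared point inside the region.

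**Figure D4:**
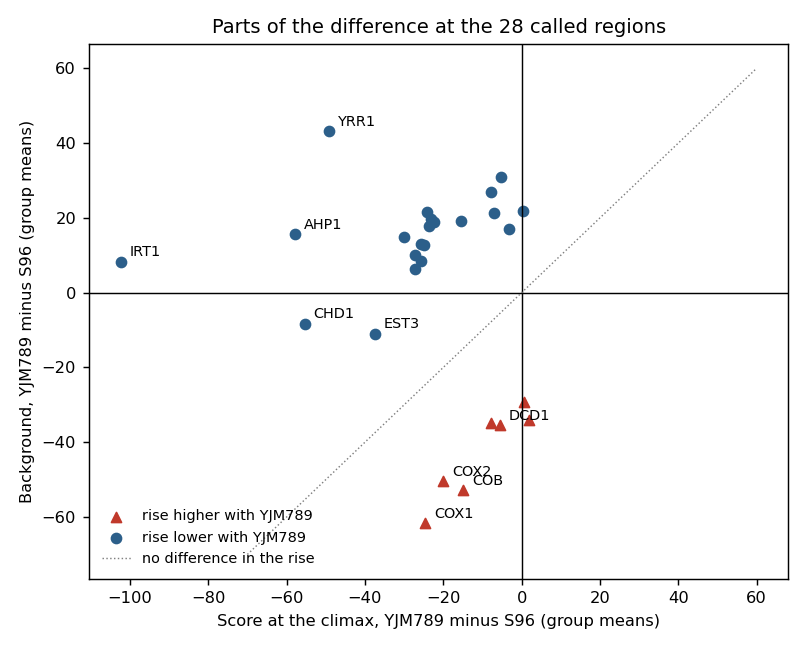
Group mean of the climax score, YJM789 minus S96 (horizontal axis), and of the background, YJM789 minus S96 (vertical axis), in score units at the 28 called regions; the dotted line marks equal parts, at which the rise does not differ. IRT1, CHD1, AHP1 and YRR1 lie far to the left, while the 7 higher regions (triangles) lie near 0 on the horizontal axis or left of it and between -29 and -62 on the vertical axis.

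MACS2 listed far fewer ChIP peaks with the YJM789 allele. There were 6, 7 and 12 peaks per library in YJM789, against 20, 114 and 181 in S96. The reverse test moved the same way, with 132, 173 and 148 peaks in YJM789 and 356, 457 and 420 in S96. Regions with an empty rise numbered 115, 188 and 145 in YJM789 and 256, 293 and 295 in S96, and the median background was -0.52, -6.78 and -3.46 in YJM789 and -8.98, -12.5 and -11.7 in S96. The groups did not overlap in any of these 4 measures, and each gave p = 0.1 in an exact two-sided permutation test, the smallest 3 against 3 libraries allow. The median climax score was 25.2, 21.4 and 23.8 in YJM789 and 20.7, 20.5 and 21.6 in S96 (exact p = 0.2). The part of these library differences in the region calls was not tested beyond the alternative with equal medians.

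Counting regions whose peak recurred in 2 or more libraries gave 4 for YJM789 and 79 for S96, and all 4 were among the 79. Of the 79, 46 lay at tRNA genes (58.2%, where 12.7% of all 1711 regions do), and of the other 33, 22 held a small nucleolar or nuclear RNA gene or a cytosolic ribosomal protein gene. The S96 count rested on libraries 2 and 3: it was 73 without ChIP 1, 13 without ChIP 2 and 15 without ChIP 3. At a fold enrichment of at least 2 the counts were 2 for YJM789 (IRT1 and SNQ2) and 5 for S96. In 71 of the 79 no YJM789 library had a peak, and in the test of the rise 3 of the 71 were lower and 0 higher. Over all tested regions 1.56% were lower and 0.519% higher. The 79 had a median log2 difference of -0.38. They were picked by peaks in S96 libraries, so a lower rise in YJM789 follows in part from that choice. The strongest regions of this kind were the tRNA gene regions at SVP26, NOC4 and ASI1, with no YJM789 peak. ASI1 had S96 folds of 1.89, 2.14 and 2.14, yet its rise was 30.8, 27.8 and 26.5 in YJM789 and 40.5, 40.5 and 31.6 in S96 (log2 difference -0.39, adjusted p = 0.569). SVP26 (-0.57, adjusted p = 0.355) and NOC4 (0.66, 0.36) did not pass either. The median climax score over the 208 tested tRNA gene regions was 36.7, 39.8 and 41.4 in YJM789 and 45.2, 55.3 and 64.7 in S96, and their median background was 6.2, 9.0 and 8.0 in YJM789 and 14.1, 20.01 and 20.2 in S96. Climax and background were thus both lower in YJM789 there.

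**Figure D5:**
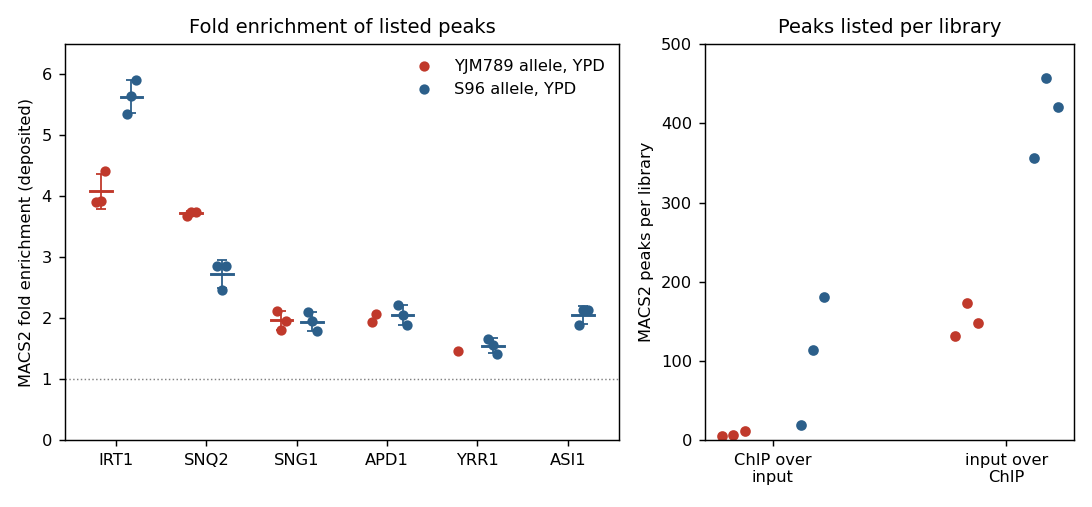
Left, deposited MACS2 fold enrichment (vertical axis) of the listed peak in each YPD library at 6 regions, YJM789 left of S96, with means and SDs where all 3 libraries have a peak; a missing point means that no peak was listed. Right, MACS2 peaks per library for ChIP over input and for input over ChIP (vertical axis): 6 to 12 and 132 to 173 in YJM789, 20 to 181 and 356 to 457 in S96.

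CisGenome, another peak caller, was run on whole groups, with 4 settings deposited. In the authors' deposited table YJM789 had 3, 6, 2 and 4 peaks and S96 had 31, 35, 22 and 33 in the same order of settings. IRT1 was listed for both alleles in all 4 settings in the authors' deposited table, with a largest log2 fold change of 2.58 in YJM789 and 3.698 in S96. For S96 its false discovery rate reached 0 in 1 setting in the authors' deposited table, while all YJM789 peaks had a rate of 1. No other S96 entry in any setting had a rate below 1 in the authors' deposited table. SNQ2 was listed in the authors' deposited table in all 4 settings for YJM789 and in 2 for S96, with largest log2 fold changes of 2.23 in YJM789 and 1.64 in S96.

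The allele difference in YPD was then set against that in 4NQO by an interaction term in the same fit, which asks where the alleles differ by medium. The allele difference was more positive in YPD at 5 of 1350 regions (0.37%) and more negative at 48 (3.56%), with a median of -0.36 over all regions. With library medians set equal, which removes that shift, the counts were 5 and 5. Among the target genes, SNG1 was the one past the threshold. Its rise in YPD, given above, was below S96, whereas in 4NQO it was 136, 140 and 123 in YJM789 and 56.7, 84.2 and 74.5 in S96. The groups thus swapped order between media, and the difference of the log2 differences was -1.48 ± 0.30 (adjusted p = 0.0074, limma). The term was not past the threshold at IRT1 (-0.47 ± 0.16, adjusted p = 0.082), SNQ2 (-0.33 ± 0.13, 0.117) or the YRR1 promoter (-0.80 ± 0.50, 0.371). In 4NQO, IRT1 stood at 237, 222 and 270 in YJM789 and 294, 231 and 254 in S96, where the groups overlap.

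The other regions named for a small adjusted p of the interaction, up to a tie that UTH1 (-1.90) and AHP1 (-2.14) share with the last of them, were the 2-micron plasmid (-2.13), TPI1 (-2.42), HPF1 (-2.79), RPL4A (-2.13), VMA3 (-2.42), SPI1 (-2.49), SFT1 (-2.32) and EMI2 (-2.44), and DCD1 in the other direction (2.35). HPF1, a cell wall mannoprotein gene, had the largest change. Its rise in YPD was 25.5, 26.5 and 20.4 in YJM789 and 26.1, 51.6 and 62.4 in S96, and in 4NQO it was 81.7, 121 and 58.9 in YJM789 and 15.04, 29.0 and 20.95 in S96. Every YJM789 library was above every S96 library in 4NQO, and this was not so in YPD. VMA3, a subunit gene of the vacuolar proton pump, had 23.5, 56.3 and 17.9 in YJM789 and 51.1, 69.7 and 50.4 in S96 in YPD, and 82.7, 59.1 and 94.9 in YJM789 and 35.1, 27.2 and 21.1 in S96 in 4NQO. The YPD difference alone passed the test at neither HPF1 (adjusted p = 0.193) nor VMA3 (0.175). The call counts of this term moved with the library medians, as given above; the part of other library differences in it was not tested.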

How the data were processed

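Per the labels' protocols, anti-Myc ChIP and input DNA of the 6 YPD libraries were sequenced on an Illumina HiSeq. The build sacCer3 and the tools Bowtie2 2.2.3, CASAVA 1.7 and MACS2 2.1.0 are listed, with no roles, per the submitters' processing notes. Per the file headers, the authors deposited a region table with climax and background scores and their difference, the rise, a signal never below 0, under parameter sets marked mn (used) and m2, and MACS2 lists with pileup signal, fold enrichment as a ratio and −log10 q; log2 fold changes and FDR values of CisGenome are the authors' own. The reads were not used, and 10 further value columns were not used.

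The fit to log2(rise + 1) used R 4.3.3 and limma 3.58.1 (trend, 18 ChIP libraries, 6 groups, 1 coefficient each), in regions with at least 2 values per group, with Benjamini-Hochberg adjustment at 0.05 and no filter on low values; the step was tested on simulated data. The groups of the fit were the YJM789, S96 and S96-I775E alleles, each in YPD and in 4NQO. A peak lay in a region at an overlap of 1 bp. A gene was assigned if its start codon lay at most 500 bp from the region's centre or if its body overlapped it. Named were all called regions, those at Yrr1 targets and IRT1, the 5 with the highest mean fold, up to 10 of the interaction, and 3 per gene list by p. Members and lists were chosen with earlier results of these data known. The m2 set, pseudocounts, scaling, filters, other fits and each library left out were tried as alternatives.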

Additional observations from a re-analysis of the deposited data

Results flagged for a closer look

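At 23 named regions the allele difference, YJM789 minus S96, differed between media by the interaction term itself (YPD minus 4NQO, on log2(rise + 1), limma, adjusted p below 0.05 over 1350 regions). The difference was more negative in YPD at 2-micron (-2.13), TPI1 (-2.42), HPF1 (-2.79), SNG1 (-1.48), RPL4A (-2.13), VMA3 (-2.42), SPI1 (-2.49), SFT1 (-2.32), UTH1 (-1.90), AHP1 (-2.14) and EMI2 (-2.44). It was also more negative in YPD at YPL062W (-1.92), TPS1 (-1.60), TAE1 (-2.20), RPS4B (-1.67), SPO14 (-1.78), MET17 (-1.77), TEF2 (-1.48), SSB1 (-1.44), GCN4 (-1.71) and YGR079W (-1.53). It was more positive in YPD at DCD1 (2.35) and YNL146C-A (2.11). Over all 1350 regions the term was called as more negative in YPD at 48 and more positive at 5. The 3 libraries of a group are too few for a test of single libraries that stand apart.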

How the results depend on the processing

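Relative to 7 higher and 21 lower regions in YPD, the counts were 53 and 39 with empty values as 0, 9 and 7 with library medians set equal, 2 and 14 in the m2 set, 1 and 11 with only the 2 groups in the fit, 4 and 16 over nuclear regions, 1 and 5 over regions with a MACS2 ChIP peak, 2 and 8 with no variance trend, 56 and 96 for the climax score, and 2 and 22 on a linear rise. They ranged from 1 to 7 higher and from 3 to 31 lower with a library left out. For the interaction, against 5 and 48, they were 35 and 50 with empty values as 0, 5 and 5 with equal medians, 1 and 41 over regions with a peak, 2 and 28 with no trend, and 6 and 102 for the climax score, and ranged from 1 to 6 and from 16 to 92 with a library left out. Pseudocounts of 0.5 and 5 left 7 and 21. Deviations of same-numbered YJM789 and S96 libraries in YPD correlated at -0.018, -0.004 and -0.026, so replicate numbers did not pair the alleles there. Pairing of YPD with 4NQO libraries of the same allele was not tested. The fit with a replicate block gave 7 and 21 in YPD and 3 and 41 for the interaction. Regions with a MACS2 peak in at least 2 libraries numbered 2 for YJM789 and 5 for S96 at a fold of at least 2, 4 and 50 at a −log10 q of at least 2, and with a library left out 3 to 4 for YJM789 and 13 to 73 for S96. The 6 library measures kept their direction in all 48 alternatives. The direction of single regions reversed on the climax score in linear units at PIM1 (9.33), SLA1 (7.8), TPS1 (1.37), SPI1 (4.75), HAP2 (3.93), YLR179C (18.5), COX5A (1.73), PDR5 (10.3), the YRR1 body (3.88) and SPO14 (0.47), and at YGR109W-A (-7.93), DCD1 (-5.6), NOC4 (-13.4), COX1 (-24.6), COB (-15.0) and COX2 (-20.1); for the interaction it reversed at the 2-micron plasmid (15.1). It reversed with equal medians at SLA1 (0.028), in the m2 set at ASI1 (0.13) and PDR5 (0.47), with 1 library left out at PDR5 (between -0.50 and 0.38), and with empty values as 0 at the YRR1 body (0.77), at YNL146C-A (-0.17) and in its interaction (-1.40). The cause was not tested. Depth is unknown, which leaves the counting error of each score without a bound.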
